A study of Rattus norvegicus with 6 samples.

Results

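The genes described are 7 niche factors of the testis, chosen by name: Kitlg, Gdnf, Fgf2, Cxcl12, Csf1 and Lif, which encode secreted or membrane-bound signals, and Etv5, which encodes a transcription factor. All 7 were measured, each by a single probe set with 1 gene symbol, among 14506 genes in all. The niche is the set of signals that keeps spermatogonial stem cells alive, dividing or differentiating on the basement membrane of the seminiferous tubule. Sertoli cells, the somatic cells that nurse the germ cells, supply several of these signals, and the peritubular cells and macrophages around the tubule supply others. Gdnf and Fgf2 promote self-renewal of the stem cells, Kitlg drives the growth of differentiating spermatogonia, and loss of Etv5 in mice exhausts the stem cells.

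Expression was measured on 6 Affymetrix arrays of total RNA from primary rat testis cell cultures labelled as Sertoli cells. Cells of 3 arrays came from 21-day-old rats, which the labels place after the phase of Sertoli cell proliferation, and cells of the other 3 from 9-day-old rats, placed within it. All cultures were grown in DMEM/F12 containing 10% fetal bovine serum, with a change of medium after a further 24 hours to purify the cells. No strain, genotype or drug is given, and the arrays are not described as separate rats or cultures, so p-values reflect the spread among these samples alone, and that spread may be technical.

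Values are RMA signals on the log2 scale, on which a difference of 1 is a 2-fold difference. Array medians ran from 3.78 to 3.87. Signals of different probe sets are not amounts that can be set against each other, so the array median serves only as a rough guide to a low signal. The label was checked against 13 measured Sertoli cell markers. Amh, Fshr, Gata1 and Cldn11 were below the array median on all 6 arrays, whereas Wt1 (6.95 to 7.44 at 21 days, 6.94 to 7.04 at 9 days) and Gata4 (7.56 to 8.21 at 21 days, 7.98 to 8.18 at 9 days) were well above it. Dmrt1, Inha, Inhbb, Tf, Clu and Aard also lay above it on all 6 arrays, and Shbg lay on both sides of it. The smooth muscle and peritubular myoid marker Acta2 stood at 11.5 to 12.7 at 21 days and 12.0 to 12.9 at 9 days. The defining germ cell marker Ddx4 stood at 2.41 to 2.53 at 21 days and 2.46 to 2.47 at 9 days. The arrays carried replicate numbers 1 to 3 at each age, and arrays of the same number deviated together. The arrays numbered 3 stood apart, with the 7 smooth muscle and myoid markers on average 1.80 (21 days) and 1.49 (9 days) above the remaining arrays of the same age. In RNA from such cultures, fewer cells of a type and less RNA per cell cannot be told apart.

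Between the ages, 3 of the 7 niche factors differed by at least 0.5 on the log2 scale, which 2.25% of all genes did. The 7 were chosen with earlier results of these data known. Below the array median on all 6 arrays lay 5481 of all genes, against 0 of the 7. The shares therefore only describe the set. Lif and Kitlg were higher at 21 days, Cxcl12 was lower, and Gdnf, Fgf2, Etv5 and Csf1 differed by less than 0.1. None of the 7 passed an adjusted p under 0.05 in limma, and neither did any other gene (0% of 14506). With 3 arrays per age, failing that test does not show that a difference lies within the spread between arrays. At an unadjusted p under 0.05 in limma there were 0 of the 7, against 2.97% of all genes. A fit that blocks on the replicate number, and so removes what arrays of the same number share, gave 2 of the 7, Kitlg and Lif, against 7.73% of all genes. None passed after adjustment with the block either.

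**Figure D1:**
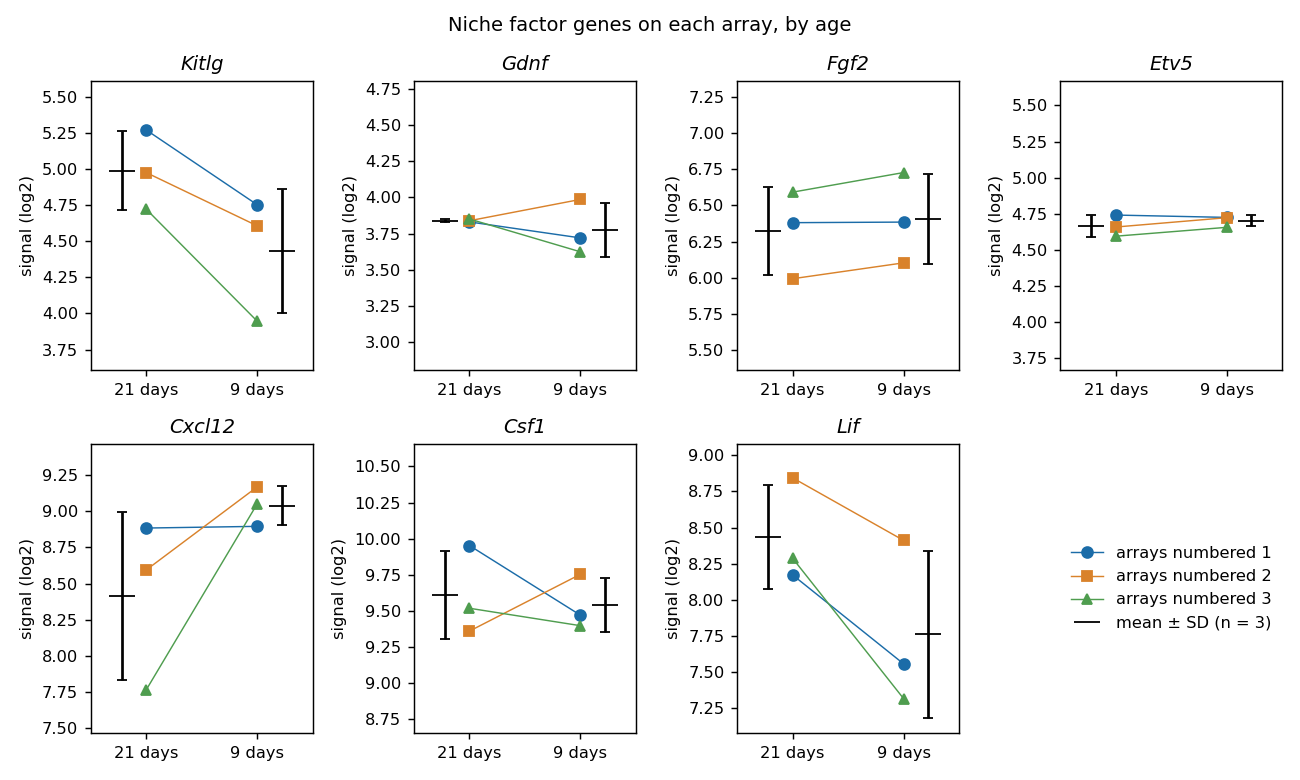
Signal (log2) of the 7 niche factor genes on each array, with 21 days left of 9 days, 1 symbol for each array, lines joining arrays of the same replicate number, and the mean ± SD of each age (n = 3) beside the points. Every panel spans 2 log2 units. The lines for Kitlg and Lif all run lower at 9 days, those for Cxcl12 run higher or nearly level there, and the lines for Etv5 are nearly flat.

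Lif encodes leukaemia inhibitory factor, a cytokine of the interleukin-6 family that favours survival of gonocytes and stem cells in culture. Its probe set (10773853) gave 8.17, 8.84 and 8.29 in replicates 1, 2 and 3 at 21 days, against 7.56, 8.41 and 7.32 at 9 days. The ages overlapped, because the 9-day-old replicate 2 exceeded the 21-day-old replicates 1 and 3. Within each replicate number the 21-day-old array was higher, by 0.62, 0.43 and 0.97 for the numbers 1, 2 and 3. Lif averaged 8.43 ± 0.36 in 21-day-old and 7.76 ± 0.58 in 9-day-old arrays (log2 signal, SD, n = 3 each). The difference was 0.67 ± 0.33 (log2, SE), a 1.59-fold difference with a 95% interval of 0.910 to 2.80. Its limma adjusted p was 1, and 0.390 with the replicate block. Of all genes, 1.12% had a larger absolute difference.

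Kitlg encodes Kit ligand, or stem cell factor, a classic Sertoli cell product that exists in a soluble and a membrane-bound form and binds the receptor Kit on differentiating spermatogonia. Its probe set (10895152) gave 5.27, 4.97 and 4.72 in replicates 1, 2 and 3 at 21 days, against 4.75, 4.61 and 3.95 at 9 days. The ages overlapped by a narrow margin, since the lowest 21-day-old array lay just under the highest 9-day-old array. The 21-day-old array was the higher of each pair of the same number, by 0.52, 0.37 and 0.78. Kitlg averaged 4.99 ± 0.27 in 21-day-old and 4.43 ± 0.43 in 9-day-old arrays (log2 signal, SD, n = 3 each). That is a difference of 0.55 ± 0.25 (log2, SE), or 1.47-fold with a 95% interval of 0.959 to 2.25. The limma adjusted p was 1, and 0.390 with the block. Without the 9-day-old replicate 3, which had the lowest value, the difference was 0.31 in the fit without the block.

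Cxcl12 encodes a chemokine that attracts and retains cells bearing the receptor Cxcr4, spermatogonial stem cells among them. Its probe set (10858165) gave 8.88, 8.59 and 7.76 in replicates 1, 2 and 3 at 21 days, against 8.90, 9.17 and 9.05 at 9 days. The ages did not overlap, although the highest 21-day-old array and the lowest 9-day-old array were nearly equal. Cxcl12 was the only one of the 7 without overlap, against 5.72% of all genes without overlap in either direction and 2.98% that lay lower at 21 days. The differences within the pairs were unequal, at -0.012, -0.58 and -1.29 for the numbers 1, 2 and 3. Cxcl12 averaged 8.41 ± 0.58 in 21-day-old and 9.04 ± 0.14 in 9-day-old arrays (log2 signal, SD, n = 3 each). The difference was -0.62 ± 0.29 (log2, SE), or 0.649 of the 9-day-old level with a 95% interval of 0.395 to 1.06. The limma adjusted p was 1, and 0.650 with the block. Much of the size rested on the 21-day-old replicate 3: the difference was -0.30 without it and -0.29 without both arrays numbered 3. In that array the 5 fibroblast markers averaged 8.79, against 9.27 and 9.66 in the other 21-day-old arrays and 9.34 to 9.53 at 9 days. Dcn and Lum were low there (9.80 and 4.96), whereas Col1a1 was at 11.8, above the other 21-day-old arrays, and Col3a1 at 9.72 lay between them. The 13 Sertoli cell markers averaged 6.11 in that array, against 5.10 and 5.52 in the other 21-day-old arrays and 4.81 to 5.03 at 9 days. The part of these markers in the difference was not tested.

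The sequences upstream of Kitlg and Cxcl12 are shown because these genes lay on opposite sides of 0, and that of Gdnf because its difference was near 0. They are the bases of RefSeq's promoter windows that precede the first annotated base of each gene, on the plus strand of rat assembly GRCr8. RefSeq's table holds 5 of the 7 genes, and Csf1 and Lif were not matched in it. Capitals mark TATAAA (the TATA box), GGGCGG (the GC box bound by Sp1-type factors), CCGGAAG (a core bound by many ETS factors, the family of Etv5) and ACGTG (the core of the hypoxia response element), each searched on both strands.
Kitlg, chr7:36782410-36782620: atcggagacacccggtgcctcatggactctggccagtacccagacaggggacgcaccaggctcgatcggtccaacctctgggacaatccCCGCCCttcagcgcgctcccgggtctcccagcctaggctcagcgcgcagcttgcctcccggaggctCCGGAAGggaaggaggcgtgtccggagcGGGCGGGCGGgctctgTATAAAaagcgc
Cxcl12, chr4:152060531-152060780: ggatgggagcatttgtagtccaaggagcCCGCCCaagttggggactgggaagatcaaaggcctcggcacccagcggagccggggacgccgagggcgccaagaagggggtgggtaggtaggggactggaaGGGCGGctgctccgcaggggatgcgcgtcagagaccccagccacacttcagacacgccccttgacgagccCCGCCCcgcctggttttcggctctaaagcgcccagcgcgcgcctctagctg
Gdnf, chr2:58621077-58621326: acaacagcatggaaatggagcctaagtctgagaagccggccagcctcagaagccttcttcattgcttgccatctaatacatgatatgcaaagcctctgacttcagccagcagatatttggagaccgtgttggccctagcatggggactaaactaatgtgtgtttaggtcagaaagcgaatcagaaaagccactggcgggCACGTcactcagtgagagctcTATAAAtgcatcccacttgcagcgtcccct

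The Kitlg window of 211 bases held 1 TATAAA, 3 GGGCGG, of which a pair on the plus strand overlap, and 1 CCGGAAG. Of the 33469 RefSeq promoter windows, each cut to its first 211 bases, 10.6% held TATAAA, 26.0% GGGCGG and 5.14% CCGGAAG on either strand. The Kitlg cut ends at the first annotated base of the gene, which cuts of other windows need not do. These shares are therefore a rough guide. The Cxcl12 window of 250 bases held 3 GGGCGG, on both strands, and no match to the other motifs. The Gdnf window, also of 250 bases, held 1 TATAAA and, on the minus strand, 1 ACGTG. Cut to their first 250 bases, 12.9% of windows held TATAAA, 30.5% GGGCGG, 7.27% CCGGAAG and 16.6% ACGTG. GC content was 67.8% for Kitlg and 67.6% for Cxcl12, against 49.6% for Gdnf. These matches describe letters only, and no binding was measured.

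Gdnf encodes glial cell line-derived neurotrophic factor, the ligand that sustains stem cell self-renewal through Gfra1 and Ret. Its probe set (10813467) gave 3.83, 3.84 and 3.85 in replicates 1, 2 and 3 at 21 days, against 3.72, 3.99 and 3.62 at 9 days. The 21-day-old arrays were almost equal to each other and lay inside the range of the 9-day-old arrays. The difference was 0.063 ± 0.10 (log2, SE), or 1.04-fold with a 95% interval of 0.874 to 1.25, and it turned to -0.013 without the 9-day-old replicate 3. Relative to the median of its own array, Gdnf lay between -0.017 and 0.054 at 21 days and between -0.21 and 0.19 at 9 days. Without detection calls it is unknown whether Gdnf exceeded background, and a difference near 0 does not show that its transcript stayed at 1 level.

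Fgf2 encodes basic fibroblast growth factor, which supports stem cells in culture and leaves cells without a classic signal peptide. Its probe set (10815026) gave 6.38, 5.99 and 6.59 in replicates 1, 2 and 3 at 21 days, against 6.38, 6.10 and 6.73 at 9 days. The arrays ranked in the same order at both ages, with number 3 highest and number 2 lowest, and the ages overlapped almost entirely. Within the pairs the 21-day-old array was lower by small amounts, -0.0040, -0.11 and -0.14. The mean difference was -0.083 ± 0.22 (log2, SE), with a 95% interval of -0.61 to 0.45, or of -0.27 to 0.10 with the block. In the fit without the block, the mean difference turned to 0.081 without the 21-day-old replicate 2. Its 9-day-old partner, the lowest of its age, was kept.

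Etv5 encodes an ETS transcription factor that responds to fibroblast growth factor signalling and acts in both Sertoli cells and stem cells of mice. Its probe set (10752034) gave 4.74, 4.66 and 4.60 in replicates 1, 2 and 3 at 21 days, against 4.73, 4.72 and 4.66 at 9 days. The 6 arrays spanned 0.15, the smallest span of the 7 genes. The difference was -0.037 ± 0.067 (log2, SE), or 0.975 of the 9-day-old level with a 95% interval of 0.870 to 1.09.

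Csf1 encodes the macrophage colony-stimulating factor, which acts on macrophages and, through Csf1r, on stem cells. Its probe set (10825869) gave 9.95, 9.36 and 9.52 in replicates 1, 2 and 3 at 21 days, against 9.47, 9.75 and 9.40 at 9 days. The highest and the lowest array were both from 21-day-old rats, and the pairs differed in both directions, by 0.48, -0.39 and 0.12. The mean difference was 0.070 ± 0.18 (log2, SE), with a 95% interval of -0.37 to 0.51. It turned to -0.10 without the 21-day-old replicate 1.

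**Figure D2:**
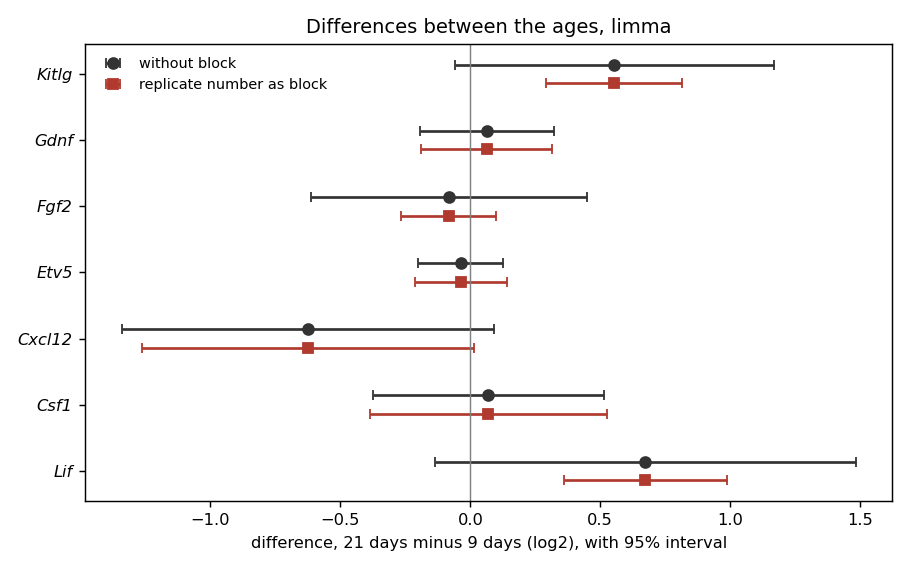
Difference between the ages (21 days minus 9 days, log2) of each niche factor gene with its 95% interval from limma, without a block (circles) and with the replicate number as a block (squares). With the block the intervals of Kitlg (0.29 to 0.82) and Lif (0.36 to 0.99) lie above 0, while those of the other 5 genes span it.

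Taken by pairs, 4 of the 7 genes ran in 1 direction at all 3 replicate numbers, against 25.2% of all genes. Kitlg and Lif were higher at 21 days in all pairs, as were 10.7% of all genes, and Cxcl12 and Fgf2 were lower in all, as were 14.4%. The median difference of the 7 genes was 0.063, beside -0.0093 over all genes, and 4 of the 7 were higher at 21 days, beside 46.5% of all genes. With 7 genes chosen by name, and with earlier results of these data known, these shares are a description of the set.

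The arrays numbered 3 also moved with some of these genes at both ages. Kitlg was lower there than in the other arrays of its age, by -0.40 at 21 days and -0.73 at 9 days. Fgf2 was higher there, by 0.40 at 21 days and 0.48 at 9 days. Against the mean of the other arrays, Lif was also lower there, by -0.22 at 21 days and -0.67 at 9 days. So were Csf1 (-0.14 and -0.21) and Etv5 (-0.10 and -0.068). Cxcl12 (-0.97 and 0.020) and Gdnf (0.016 and -0.23) went in opposite directions at 21 and 9 days. The mean of the smooth muscle and myoid markers was 10.1 in that array at 21 days, against 8.62 and 7.95 in the others, and 10.3 in that array at 9 days, against 8.70 and 8.91. The part of these markers in the levels of the niche factors was not tested. Without both arrays numbered 3, Lif differed by 0.52 and Kitlg by 0.44 between the ages.

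**Figure D3:**
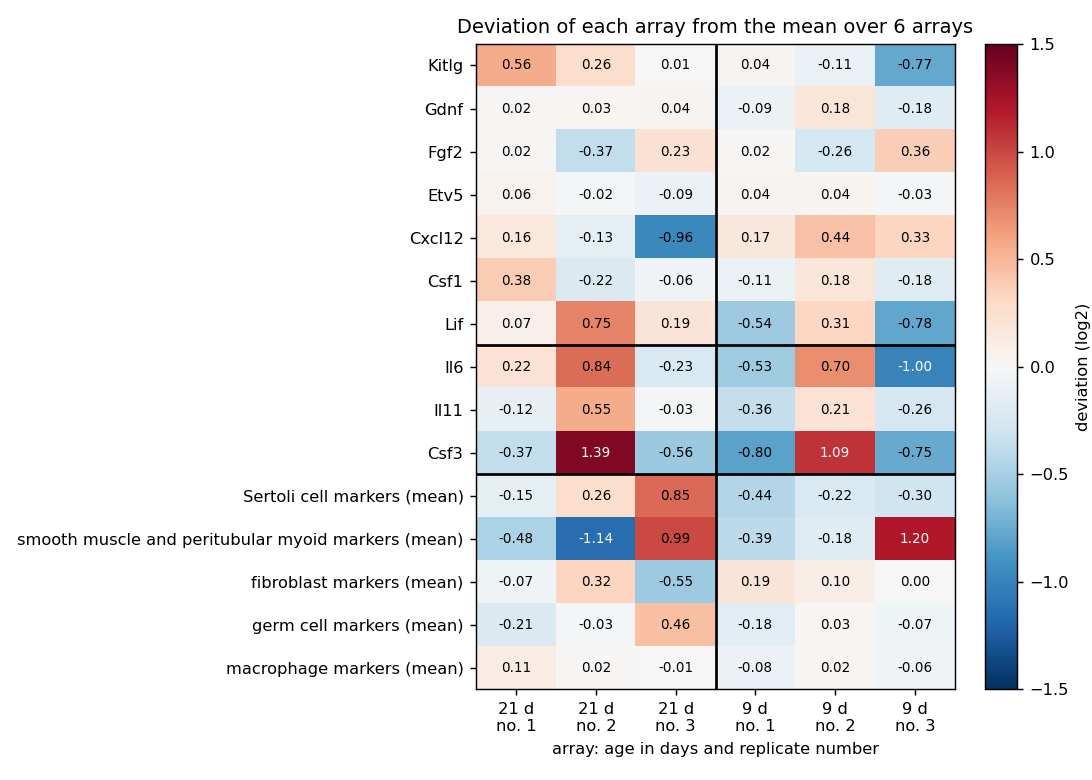
Deviation (log2, colour and number) of each array from the mean over the 6 arrays, with 21-day-old arrays left of 9-day-old arrays. Rows give the 7 niche factors, 3 related cytokines, and the means of 5 lists of cell type markers. Lif, Il6, Il11 and Csf3 are highest in the array numbered 2 at each age, and the smooth muscle markers are highest in the arrays numbered 3.

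Of the receptors of these factors, Kit, Gfra1 and Ret are known from spermatogonia, and several receptors gave low signals. The list held 13 genes, all measured, of which 5 were higher at 21 days and 8 lower. The median difference was -0.032, and none was called. Kit, the receptor of Kitlg, gave 2.92, 2.96 and 3.19 in replicates 1, 2 and 3 at 21 days, against 2.93, 2.92 and 2.92 at 9 days. Kit, Ret, Cxcr4, Csf1r and Fgfr4 lay below the array median on all 6 arrays. Gfra1, the receptor subunit that binds Gdnf, gave 4.43, 3.93 and 3.66 at 21 days, against 4.34, 3.95 and 3.82 at 9 days. At both ages the array numbered 1 was the highest and the array numbered 3 the lowest. These receptors are named for the members they bind.

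Il6st, the signalling subunit shared by receptors of the Lif family, gave 9.46, 9.61 and 9.04 in replicates 1, 2 and 3 at 21 days, against 9.50, 9.76 and 9.30 at 9 days. It was lower at 21 days in all 3 pairs, with a difference of -0.15 ± 0.19 (log2, SE). Fgfr1 was also lower in all pairs, with a difference of -0.18 ± 0.16. Of the 13 receptors, 2 were lower and 1 higher in all pairs, beside 14.4% and 10.7% of all genes. The largest differences in the list were -0.56 ± 0.44 for Fgfr2 and 0.30 ± 0.76 for Ackr3, a scavenging receptor of Cxcl12. Both depended on single arrays. Fgfr2 was at 5.55 in the 21-day-old replicate 2 and between 6.83 and 7.47 in all others, and differed by -0.069 without that array. Ackr3 was at 8.81 in the 21-day-old replicate 1, and its difference turned to -0.41 without it, to -0.094 without the 9-day-old replicate 3, and was 0.97 without the 21-day-old replicate 3.

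Of 12 other ligands, related to the members by family or by name, 7 were higher at 21 days and 5 lower. The median difference was 0.099, and none was called. In all 3 pairs, 5 of the 12 were higher at 21 days and 0 lower, beside 10.7% and 14.4% of all genes. Il6, the founding cytokine of the family of Lif, gave 5.07, 5.69 and 4.63 in replicates 1, 2 and 3 at 21 days, against 4.32, 5.56 and 3.85 at 9 days. The ages overlapped, yet each 21-day-old array was above its partner of the same number. The difference was 0.55 ± 0.50 (log2, SE), with a limma adjusted p of 1, or of 0.515 with the block. The unpaired difference was 0.19 without the 9-day-old replicate 3. Csf3, the granulocyte colony-stimulating factor, differed by 0.31 ± 0.73. It gave 6.27 and 5.97 in the replicate 2 arrays of 21 and 9 days, against 4.08 to 4.51 in the other 4 arrays, and the unpaired difference turned to -0.31 without the 21-day-old replicate 2 and to -0.013 without the 9-day-old replicate 1. Within the pairs Csf3 was higher at 21 days by 0.43, 0.30 and 0.20, and its limma adjusted p with the block was 0.479. Il11 was likewise highest in the replicate 2 array of each age, at 5.04 (21 days) and 4.70 (9 days), and was higher at 21 days in each pair, by 0.24, 0.34 and 0.23 (limma adjusted p 0.484 with the block). It is named because Lif, Il6 and Csf3 were also highest there. Il34, a further ligand of Csf1r, and Ctf1, a member of the family of Lif, did not overlap between the ages and differed by 0.26 ± 0.087 and 0.19 ± 0.10. Il34 lay below the array median on all 6 arrays. Both were named after their values had been seen, and 2.74% of all genes were higher at 21 days without overlap.

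Genes of the fibroblast growth factor pathway showed no common direction. Of 20 other ligands, 13 were higher at 21 days and 7 lower. Of the 20, 13 lay below the array median on all 6 arrays, Fgf12 among them. The median difference was 0.019, and none was called. Fgf18 had the largest difference. It gave 5.42, 4.78 and 5.54 in replicates 1, 2 and 3 at 21 days, against 4.60, 4.35 and 4.92 at 9 days, and was higher at 21 days in all 3 pairs although the ages overlapped. Its difference was 0.62 ± 0.24 (log2, SE), with a limma adjusted p of 1, or of 0.385 with the block. Fgf12 differed by -0.17 ± 0.11, and by -0.11 without the 9-day-old replicate 3 or the 21-day-old replicate 1, and -0.27 without the 21-day-old replicate 3.

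Among 12 genes that respond to this pathway, 4 were higher at 21 days and 8 lower. The median difference was -0.072, and none was called. Spry1, a feedback inhibitor, differed by -0.50 ± 0.58 (log2, SE), and by -0.0089 without the 9-day-old replicate 3. Dusp6, a phosphatase that turns off the ERK kinases, differed by 0.39 ± 0.29. It gave 6.35 in the 9-day-old replicate 3 and 7.24 to 7.49 in all other arrays, and differed by 0.065 without that array. Etv1 and Etv4, the closest relatives of Etv5, differed by -0.10 ± 0.17 and 0.053 ± 0.062, and are named for that kinship.

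Of the chemokine and protease genes reported to depend on Etv5 in Sertoli cells of mice, 4 were measured besides Cxcl12. Of these, 3 were higher and 1 lower at 21 days, and none was called. The largest differences were 0.23 ± 0.10 for the chemokine gene Ccl9 (0.15 without the 9-day-old replicate 2) and 0.10 ± 0.47 (log2, SE) for Mmp12, which encodes macrophage elastase and turned to -0.41 without the 21-day-old replicate 2. The chemokine gene Ccl7, chosen after its values had been seen, gave 11.2, 11.0 and 11.2 in replicates 1, 2 and 3 at 21 days, against 11.0, 11.1 and 11.2 at 9 days. Cxcl12 thus had the largest absolute difference among the 5, and Etv5 itself was nearly level.

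Other genes with roles in the germ cell niche included Wnt5a, Igf1 and Igf2, which lay lower at 21 days in all pairs. Of 12 genes, 5 were higher at 21 days and 7 lower. In all 3 pairs, 5 of the 12 were lower at 21 days and 1, Vegfa, was higher, beside 14.4% and 10.7% of all genes. The median difference was -0.079, and none was called. Wnt5a, a Wnt ligand that supports stem cell survival in mice, gave 4.84, 4.90 and 5.64 in replicates 1, 2 and 3 at 21 days, against 5.42, 6.18 and 6.21 at 9 days. It was lower at 21 days in all 3 pairs, with overlap between the ages, and differed by -0.81 ± 0.31 (log2, SE). Igf1, the insulin-like growth factor, gave 5.80, 5.95 and 5.44 at 21 days, against 6.48, 6.24 and 6.37 at 9 days. These values did not overlap, and the difference was -0.63 ± 0.15, close in size to that of Cxcl12. The limma adjusted p of both was 1, and 0.412 with the block. Igf2 also lay lower without overlap, by -0.58 ± 0.18, and was named after its values had been seen. Of all genes, 2.98% lay lower at 21 days without overlap.

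Genes of the spermatogonia that receive these signals gave mostly, but not only, low values. Of 18 measured genes, 14 lay below the array median on all 6 arrays, 11 were higher and 7 lower at 21 days, and the median difference was 0.0036. Uchl1, named after its values had been seen, was well above it, at 7.68 to 8.43 at 21 days and 8.02 to 8.22 at 9 days. Itga6, a laminin-binding integrin subunit used to enrich stem cells and expressed by many other cells, gave 4.46, 3.98 and 7.58 in replicates 1, 2 and 3 at 21 days, against 3.71, 3.77 and 3.98 at 9 days. Its difference of 1.53 ± 0.94 (log2, SE) came mostly from the 21-day-old replicate 3, and was 0.40 without it. Egr3, a transcription factor induced by Gdnf in stem cells of mice, differed by 0.26 ± 0.16, and by 0.090 without the 21-day-old replicate 2. None of the list was called.

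**Figure D4:**
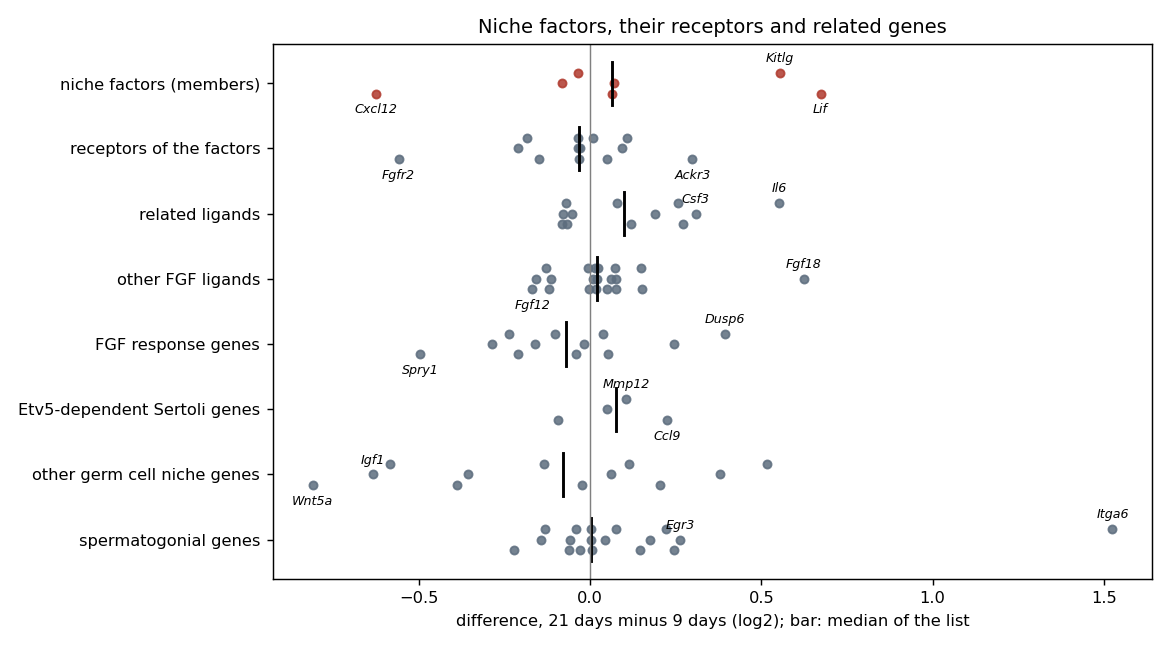
Difference between the ages (21 days minus 9 days, log2) of each measured gene, by list, with 1 point for each gene and a bar at the median of the list. The niche factors (top) hold Kitlg and Lif above 0.5 and Cxcl12 below -0.5.

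The genes whose values over the 6 arrays lay closest to those of Lif, Kitlg and Cxcl12, the members that span at least 1 on the log2 scale, were found by the root mean square distance after each gene was centred on its own mean. For Lif they were Ggt1, a gamma-glutamyltransferase (0.073), the sialyltransferase St3gal4 (0.19) and the small GTPase Rab20 (0.22). For Kitlg they were the immunity-related GTPase Irgm (0.091), the glutathione transferase Gsta1 (0.10) and the secreted phospholipase Pla2g5 (0.11). For Cxcl12 they were the lipid phosphatase Plpp3 (0.085), the angiopoietin Angpt1 (0.14) and the aminopeptidase Anpep (0.14). The distance to a flat line was 0.52 for Lif, 0.40 for Kitlg and 0.46 for Cxcl12. Ggt1 gave 5.66, 6.56 and 5.83 in replicates 1, 2 and 3 at 21 days, against 5.13, 6.06 and 4.93 at 9 days, and so shared with Lif the high replicate 2 at both ages. Plpp3 gave 9.34, 9.13 and 8.38 at 21 days, against 9.34, 9.57 and 9.42 at 9 days, with the low 21-day-old replicate 3 seen for Cxcl12. With 6 arrays and 14506 genes to choose from, this likeness is only a description.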

How the data were processed

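Total RNA from cultured rat testis cells was measured in 6 samples, each on an Affymetrix array. Per the submitters' processing notes, the authors used RMA, and the deposited values are on the log2 scale. RMA corrects background, normalizes arrays by quantiles and summarises probes per probe set. The RMA version was not given in the sources used here. Ages and replicate numbers come from the sample titles.

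The table held 29214 probe sets, of which 15310 had 1 gene symbol in the platform annotation, 323 had several and 13581 are unnamed here. Entrez numbers of 15279 were found in RefSeq (GRCr8), which changed 0 symbols. Of several probe sets of a gene the one with the highest mean was kept, giving 14506 genes. The ages were compared as 21 days minus 9 days in limma 3.58.1 (R 4.3.3), by lmFit and eBayes on all genes without covariates or filter. Benjamini-Hochberg adjustment ran over all genes, and the threshold was 0.05. The fit without the replicate block was tested on simulated data with independent noise on each array. What arrays of the same number share was not simulated, so that test cannot speak for p-values under such sharing. Precision is limited by the number of arrays (median SE of a difference 0.11). Background signals, detection calls and scan batches were not used here.

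The members and lists were chosen with earlier results of these data known. Genes were named by a rule: all members, the 2 genes with the largest difference in each list of related genes, any that passed the test, and the 3 genes nearest to each member that spans at least 1. Deviations from the means of the ages correlated across genes at 0.44, 0.55 and 0.67 for arrays numbered 1, 2 and 3, above the limit of 0.1. Differences within pairs of the same number are therefore given, and the block was fitted as an alternative. Standard errors and intervals come from the fit without the block unless the block is named. For Lif the SE was 0.33 in that fit and 0.12 with the block. This pairing rests on the titles, and what a number marks is not stated there. Alternatives were the replicate block, filters on signal, scalings, the choice of probe sets, variance models, array weights and leaving out arrays. Apart from the replicate block itself, these were fitted without the block. Plots used matplotlib 3.10.9 under Python 3.11.15.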

Additional observations from a re-analysis of the deposited data

How the results depend on the processing

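None of the 7 niche factors and none of the genes tested passed under any of the 16 alternatives. The lowest adjusted p of a member was 0.390 (limma with the replicate block, Kitlg and Lif), and the replicate block raised the genes at an unadjusted p under 0.05 to 1122, against 431 without it, and changed no call. Kitlg, Lif, Cxcl12 and Etv5 kept their direction under all alternatives. The replicate block, the filters on signal, the choice of probe sets and the variance models left the differences of these genes unchanged. Only the scalings, the array weights and leaving out arrays could have turned them. Arrays were left out 1 at a time in the fit without the block, with the partner of the same number kept. This gave 0.31 to 0.71 for Kitlg, 0.45 to 1.00 for Lif, -0.86 to -0.30 for Cxcl12 and -0.075 to -0.0017 for Etv5. The sign turned for Gdnf (-0.013 to 0.17), Fgf2 (-0.23 to 0.081) and Csf1 (-0.10 to 0.19), and among related genes for Ackr3 (-0.41 to 0.97), Csf3 (-0.31 to 0.93) and Mmp12 (-0.41 to 0.45). Even so, Fgf2 was lower and Csf3 higher at 21 days in all 3 pairs. Without both arrays numbered 3 Gdnf differed by -0.018, and with array weights Mmp12 differed by -0.067. The cause was not tested. Gdnf was too dim to stay among the 7253 genes kept by the stricter filter. With 3 arrays per age and no detection calls, small differences of dim probe sets such as Gdnf could not be resolved.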

Other observations

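Markers of the cell types that could supply or receive these factors differed between the ages as follows, and no gene among them passed the test. Of 13 Sertoli cell markers 11 were higher at 21 days, with list means of 5.10 to 6.11 at 21 days and 4.81 to 5.03 at 9 days. The largest of these differences was 3.59 for Tf, the transferrin gene, and the highest list mean was that of the 21-day-old array numbered 3. Without Tf, a choice made after the data were seen, the list means overlapped at 4.83 to 5.69 (21 days) and 4.79 to 4.93 (9 days). All 7 smooth muscle and myoid markers were lower in mean, with a median difference of -0.35, and the list means overlapped at 7.95 to 10.1 (21 days) and 8.70 to 10.3 (9 days). Of 5 fibroblast markers 4 were lower, led by Pdgfra at 7.70 to 8.24 at 21 days and 8.48 to 8.93 at 9 days. Of 6 Leydig cell markers 4 were higher, led by the glucocorticoid-activating enzyme Hsd11b1 with 0.98, and 3 of the 6 lay below the array median on all arrays. Star, also among the 4, stood at 10.8 to 11.3 at 21 days and 10.8 to 11.2 at 9 days. Of 7 macrophage markers 5 were higher, with 5 of the 7 below the array median on all arrays. All 5 germ cell markers were higher in mean, with a median difference of 0.18, and 4 of them lay below the array median on all arrays. Without the 21-day-old replicate 3, whose germ cell marker mean was 3.08 against 2.41 and 2.59 in the other 21-day-old arrays, 1 of the 5 was higher and 4 lower. Of 5 endothelial markers 4 were higher, with a median difference of 0.21, and 3 of the 5 lay below the array median on all arrays. The 1 lower marker was Cdh5, at 4.66 to 5.17 at 21 days and 4.84 to 5.27 at 9 days, with a difference of -0.17. Of all genes, 46.5% were higher at 21 days.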
